A study of Mus musculus with 6 samples.

Results

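The genes described here are 10 markers of the endothelium, the cells that line blood and lymph vessels, read in RNA from sorted intestinal stem cells: Esam, Kdr, Pecam1, Cdh5, Tek, Tie1, Eng, Flt1, Emcn and Vwf. They were taken by name, and each was read from the probe set whose only gene symbol is that name and whose mean log2 value over the arrays was highest. All 10 were measured, by 15 probe sets in all, among 18193 genes on arrays of 45101 probe sets. The arrays compared 3 mice given DBZ with 3 mice given vehicle (DMSO), in cells collected after 24 h. All 6 mice carried the Lgr5-EGFP-IRES-creERT2 allele, which places a green fluorescent protein and a drug-inducible Cre recombinase under the Lgr5 gene, and the cells were sorted from small intestine for high GFP. DBZ is a gamma-secretase inhibitor (GSI), and gamma-secretase is the protease that cuts bound Notch receptors so that their inner part can reach the nucleus. The sources used here name neither the age or sex of the mice nor a gate against endothelial cells. The study asked with this contrast which genes respond in the gut when NOTCH1 is inhibited.

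Endothelial cells are built around a small set of surface proteins. Receptors for vascular endothelial growth factor (VEGF) and for angiopoietins drive the growth and upkeep of vessels, adhesion proteins such as VE-cadherin seal the junctions between neighbouring cells, and von Willebrand factor is stored and released to bind platelets. In the small intestine a capillary net lies close around the crypts and fills the core of each villus. Notch acts within endothelium too, where Dll4 on leading tip cells restrains their neighbours and blockade of Notch is known to increase sprouting. Some of these markers are shared with blood cells: platelets hold Vwf and Pecam1, and Esam is also found on platelets and haematopoietic stem cells.

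Array medians lay between 44.9 and 46.3 intensity units. Titles and descriptions disagree, since the description names DMSO for all 6 arrays, and the titles were followed. Olfm4, a Notch-dependent stem cell gene, gave 35.9, 18.6 and 29.9 units in DBZ arrays, against 3627, 4234 and 5177 in vehicle arrays. Epcam, which marks epithelium, averaged 18665 ± 1296 units in DBZ arrays and 18274 ± 1111 in vehicle arrays (SD, n = 3 each). Lgr5 averaged 229.9 ± 18.0 units in DBZ arrays and 245 ± 35.9 in vehicle arrays (SD, n = 3 each), with overlap. The 3' to 5' signal ratio of the actin control was 1.53, 1.51 and 1.57 in DBZ replicates 1, 2 and 3, against 2.22, 1.61 and 1.69 in vehicle replicates 1, 2 and 3, without overlap, so it moved with every difference given here, and its part in them was not tested. That of the Gapdh control overlapped, at 1.05 to 1.09 in DBZ arrays and 1.07 to 1.42 in vehicle arrays. Vehicle replicate 1 had the highest ratio of both controls.

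Endothelial genes were higher with DBZ in most cases, by a modest amount. Esam, Kdr and Eng rose, by 1.58-fold, 1.42-fold and 1.41-fold, and the other 7 genes did not pass the test. All 10 log2 differences were positive, where 45.4% of all genes had a positive difference, and their median was 0.44, beside -0.02 for all genes. For 9 of the 10 genes the lowest DBZ array lay above the highest vehicle array, beside 17.3% of all genes. The test was limma across all genes on log2(intensity + 16), with a Benjamini-Hochberg adjusted p below 0.05 taken as a change. By that test 3 of 10 members rose and 0 fell, while 5.34% of all genes were called in either direction, 3.82% higher and 1.52% lower. Unadjusted p was below 0.05 for 8 of the 10 members (limma), and for 15.1% of all genes in the upward direction. The members were chosen with earlier results of these data known, so the shares beside them are no independent test.

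The calls depended on single arrays. With vehicle replicate 1, 2 or 3 left out, 0 members passed (limma, with 5, 5 and 8 at an unadjusted p below 0.05). Without DBZ replicate 1, 2 and 3, 3, 1 and 1 passed. The number of genes called over the whole array moved in the same refits, to 49, 19 and 38 without vehicle replicate 1, 2 and 3 and to 2032, 217 and 352 without DBZ replicate 1, 2 and 3, against 972 with all arrays. Of the 23 genes past the test that are named here from the members and lists, 22, 10 and 11 kept the call without DBZ replicate 1, 2 and 3, and 1, 0 and 3 without vehicle replicate 1, 2 and 3 (limma). After quantile normalization between arrays 1 of the members passed. The median difference of the 10 genes stayed between 0.35 and 0.46 in the 6 refits that left out an array, and was 0.29 with array weights and 0.30 with a pseudocount of 64. With array weights 4 members passed and 5 had an unadjusted p below 0.05, and the differences of Pecam1 and Emcn were 0.21 and 0.27 (limma).

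**Figure D1:**
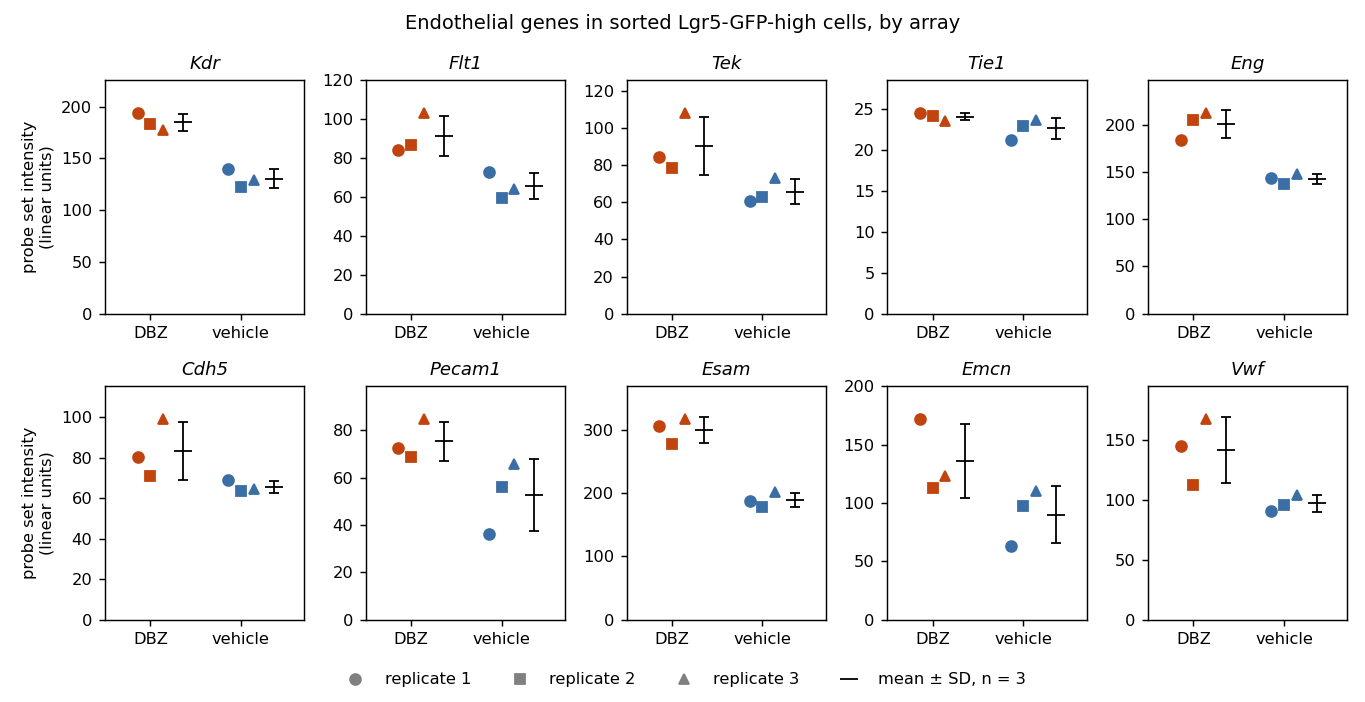
Probe set intensity (linear units, each axis from 0) of the 10 endothelial genes in 3 DBZ arrays and 3 vehicle arrays, with a marker shape for each replicate and the mean ± SD beside the points. The groups lie apart for every gene but Tie1, and Esam, Kdr and Eng show the widest gaps between the groups for their spread.

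Kdr and Flt1, the VEGF receptors among the members, lay apart between the groups on the probe sets used. Kdr, the main signalling receptor for VEGF in endothelium, had 194, 183 and 177 intensity units in DBZ replicates 1, 2 and 3, against 140.2, 122 and 129 units in vehicle replicates 1, 2 and 3. Every DBZ array was above every vehicle array, and the lowest DBZ value exceeded the highest vehicle value by 26.6%. The log2 difference was 0.46 ± 0.07 (SE, n = 3 per group; limma, Benjamini-Hochberg adjusted p = 0.031), with a 95% interval of 0.28 to 0.63. In the leave-out refits Kdr passed only without DBZ replicate 1, at an adjusted p of 0.035, and had adjusted p values of 0.057 to 0.108 in the other 5 (limma), and it missed the threshold after quantile normalization (0.058).

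Flt1, which binds VEGF tightly and can hold it away from Kdr, had 84.0, 86.4 and 103 units in DBZ replicates 1, 2 and 3, against 72.6, 59.3 and 64.1 units in the vehicle arrays. These groups were apart, and the difference of 0.40 ± 0.10 on the log2 scale did not pass (SE, n = 3 per group; limma, adjusted p = 0.070, 0.022 with array weights and 0.058 to 0.233 over the other alternatives). The array holds 3 more probe sets for Flt1, with log2 differences of 0.07, 0.15 and -0.09. The value of Flt1 therefore depends on the probe set, and its mean over the probe sets gave an adjusted p of 0.233 (limma).

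Tek and Tie1 form the angiopoietin receptor pair, in which Tek binds angiopoietins and Tie1 has no established ligand of that kind and modulates Tek. Tek gave 84.5, 78.7 and 108 units in DBZ arrays and 60.9, 62.8 and 73.3 units in vehicle arrays. The lowest DBZ array lay 7.44% above the highest vehicle array. Its log2 difference of 0.38 ± 0.12 did not pass (SE, n = 3 per group; limma, adjusted p = 0.12) and was 0.26 without DBZ replicate 3, where Tek was highest. Tie1 is the member whose groups overlapped: 24.5, 24.1 and 23.6 units in DBZ arrays against 21.2, 23.0 and 23.7 in vehicle arrays. Its difference of 0.05 ± 0.06 on the log2 scale has a 95% interval of -0.08 to 0.19 (SE, n = 3 per group; limma, adjusted p = 0.59). All of its values lay below the array medians, and detection calls were not used here, so a true signal for Tie1 cannot be told from background.

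Eng encodes endoglin, a co-receptor for ligands of the TGF-beta and BMP families that is also made by some stromal cells. Its intensity was 184, 205 and 212 units in DBZ arrays, against 143, 137 and 148 units in vehicle arrays. The lowest DBZ value lay 24.9% above the highest vehicle value. Eng rose by a log2 difference of 0.45 ± 0.07 (SE, n = 3 per group; limma, adjusted p = 0.032), and a further probe set of the gene gave 0.29, with its groups apart at 119 to 128 units in DBZ arrays and 85.1 to 110.1 units in vehicle arrays. The call ended after quantile normalization (limma, adjusted p = 0.0502), in the fit with the replicate number as a block (0.053) and without every array other than DBZ replicate 1 (0.070 to 0.112).

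Promoter sequence shows what lies before the start of the receptor genes. RefSeq promoters (GRCm38.p6) were at hand for 6 of the 10 members, namely Kdr, Flt1, Tek, Tie1, Eng and Emcn. The 250 bases before the annotated start were searched on both strands for 3 words. CGTGGGAA is a strong site of RBPJ, the DNA-binding partner of Notch. AGGAAG is a core form of the ETS factor sites that many endothelial promoters carry. AGATAA is a site of the GATA family of factors. No match overlapped another. Of the 5 that lay apart between the groups, the VEGF receptors and Eng are printed as examples that hold a match, and Tie1 is printed as the member that overlapped. Capitals mark the matches, and each sequence runs 5′ to 3′ on the strand of its gene.
Kdr (chr5:75978456-75978705, minus strand): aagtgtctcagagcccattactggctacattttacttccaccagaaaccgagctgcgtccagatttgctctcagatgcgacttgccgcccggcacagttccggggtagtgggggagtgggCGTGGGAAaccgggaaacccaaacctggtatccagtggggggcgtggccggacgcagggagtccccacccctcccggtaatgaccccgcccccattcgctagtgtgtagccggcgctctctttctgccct
Flt1 (chr5:147726012-147726261, minus strand): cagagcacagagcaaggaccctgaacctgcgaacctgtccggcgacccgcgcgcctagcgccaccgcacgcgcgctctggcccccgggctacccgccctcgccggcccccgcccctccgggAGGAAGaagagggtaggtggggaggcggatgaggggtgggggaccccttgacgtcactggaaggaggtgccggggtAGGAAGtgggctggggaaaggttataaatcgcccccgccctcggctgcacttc
Eng (chr2:32646345-32646594, plus strand): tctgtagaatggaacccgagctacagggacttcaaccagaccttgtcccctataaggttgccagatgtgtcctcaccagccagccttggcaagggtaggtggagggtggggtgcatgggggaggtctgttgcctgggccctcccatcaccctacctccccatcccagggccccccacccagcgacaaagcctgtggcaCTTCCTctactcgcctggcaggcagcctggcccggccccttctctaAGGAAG
Tie1 (chr4:118489850-118490099, minus strand): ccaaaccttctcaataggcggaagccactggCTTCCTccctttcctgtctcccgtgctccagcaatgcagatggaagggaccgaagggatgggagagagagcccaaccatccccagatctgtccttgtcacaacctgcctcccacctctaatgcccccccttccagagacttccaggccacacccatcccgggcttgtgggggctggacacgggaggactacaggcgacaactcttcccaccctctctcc

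Kdr was the member with a CGTGGGAA match, 130 bases before its start and on the strand of the gene. Of 32851 promoter windows of the same length 0.636% held that word. AGGAAG was found in 4 of the 6 members, Flt1, Eng, Tie1 and Emcn, and in 29.5% of all windows. Tie1, whose groups overlapped, thus carries the word as do Flt1, Eng and Emcn, whose groups were apart. AGATAA was found in 0 of the 6 windows and in 9.99% of all windows, and the window of Tek held none of the words searched. These matches describe letters in the sequence and say nothing of binding.

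Among junction and adhesion proteins, Esam moved most clearly. Esam, an adhesion molecule of endothelial tight junctions, had 305, 277 and 316 units in DBZ replicates 1, 2 and 3, against 187, 179 and 201 units in the vehicle arrays. The lowest DBZ array stood 37.5% above the highest vehicle array, the widest such gap among the 10 members. Its log2 difference was 0.62 ± 0.08 (SE, n = 3 per group; limma, adjusted p = 0.023), with a 95% interval of 0.44 to 0.81. Esam passed without each of the DBZ arrays in turn (limma, adjusted p = 0.020 to 0.045) and missed the threshold without each of the vehicle arrays (0.076 to 0.094). Its difference stayed between 0.58 and 0.67 in those refits.

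Cdh5 encodes VE-cadherin, the cadherin of endothelial adherens junctions. It had 80.4, 71.1 and 99.1 units in DBZ arrays and 69.2, 63.7 and 64.5 units in vehicle arrays. The lowest DBZ value lay 2.71% above the highest vehicle value. The log2 difference of 0.27 ± 0.11 did not pass (SE, n = 3 per group; limma, adjusted p = 0.18) and was 0.16 without DBZ replicate 3 and 0.08 as the mean of its probe sets. A dimmer probe set of Cdh5, at 15.5 to 18.3 units in DBZ arrays and 18.1 to 20.7 in vehicle arrays, had a difference of -0.11, of opposite sign to that of the brighter one.

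Pecam1, the CD31 adhesion molecule of endothelium, platelets and leukocytes, had 72.3, 68.9 and 84.6 units in DBZ arrays, against 36.3, 56.1 and 65.7 units in vehicle arrays. The vehicle arrays spread widely, with replicate 1, the array of the highest 3' to 5' ratios, lowest. Its log2 difference of 0.43 ± 0.17 did not pass (SE, n = 3 per group; limma, adjusted p = 0.18) and was 0.25 without vehicle replicate 1.

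Emcn and Vwf mark endothelium by their products, a surface sialomucin of capillaries and veins and the clotting protein of storage granules. Emcn gave 172, 113 and 123 units in DBZ arrays and 62.8, 97.5 and 110.0 units in vehicle arrays. DBZ replicate 1 was high and vehicle replicate 1, again the array of the highest 3' to 5' ratios, low, and the other arrays lay close together across the groups. The log2 difference of 0.53 ± 0.22 did not pass (SE, n = 3 per group; limma, adjusted p = 0.19) and was 0.33 without vehicle replicate 1. Vwf had 146, 113 and 168 units in DBZ arrays, against 91.3, 95.8 and 105 units in vehicle arrays. All DBZ arrays were above the vehicle arrays, by a log2 difference of 0.47 ± 0.14 that did not pass (SE, n = 3 per group; limma, adjusted p = 0.098, 0.062 to 0.229 over the alternatives).

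Within the groups no order of arrays held for all members. DBZ replicate 3 was the highest DBZ array for 7 of the 10 genes, where it was highest for 32.4% of all genes, and DBZ replicate 2 was the lowest for 6, beside 26.7% of all genes. Vehicle replicate 3 was the highest vehicle array for 7 members, beside 26.0% of all genes, and vehicle replicates 1 and 2 were the lowest for 5 each. The summed intensity of the 10 genes was 1346, 1219.9 and 1415 units in DBZ replicates 1, 2 and 3, against 885, 896 and 983 units in vehicle replicates 1, 2 and 3. The ratio of the group means of these sums was 1.44.

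**Figure D2:**
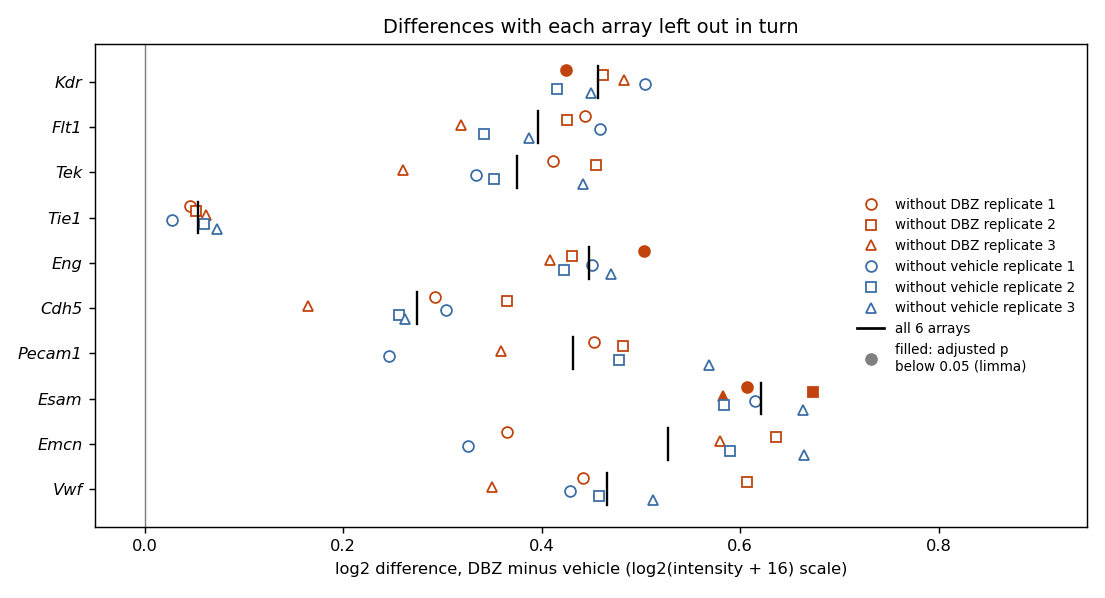
Log2 difference, DBZ minus vehicle, of each endothelial gene after leaving out each array in turn (symbols, filled where limma's adjusted p was below 0.05) and with all 6 arrays (black line). No difference turned negative, filled symbols are seen for Kdr, Eng and Esam, and Esam is the gene with more than a single filled symbol. For every gene but Tie1 the groups lay apart, so leaving out an array could not turn the sign.

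A list of 28 further endothelial genes had a smaller median difference, with more of its members near 0. Of the 28, 2 rose and 0 fell (limma over all genes, with 3.82% of all genes higher), 26 differences were positive, and the groups were apart upward for 12 and downward for 0, beside 17.3% and 15.8% of all genes. The median difference was 0.18, beside -0.02 for all genes. Aplnr, the apelin receptor of sprouting and venous endothelium, had 339, 237 and 191 units in DBZ arrays, against 103, 53.5 and 98.7 in vehicle arrays, a log2 difference of 1.43 ± 0.28 (SE, n = 3 per group; limma, adjusted p = 0.046). Sox18, an endothelial transcription factor, had 117, 105 and 97.2 units in DBZ arrays, against 77.7, 70.9 and 62.6 in vehicle arrays, a difference of 0.50 ± 0.09 (limma, adjusted p = 0.044). For both genes all DBZ arrays were above all vehicle arrays. Their calls were lost with a pseudocount of 64 and after quantile normalization, where 0 of the 28 passed (limma, with 10 and 8 at an unadjusted p below 0.05). The call of Aplnr was also lost as the mean of its 2 probe sets, at a difference of 0.86 (limma, adjusted p = 0.068). A count of 0 of the 28 was found without any array other than DBZ replicate 1 (limma, with 8 to 10 at an unadjusted p below 0.05). Outside the naming rule and picked after values were seen, Erg, an ETS factor that defines endothelium, was at -0.08 ± 0.08, Cldn5, its tight junction claudin, at 0.19 ± 0.19, and Plvap, the diaphragm protein of fenestrated capillaries, at 0.42 ± 0.11 (SE, n = 3 per group; limma, adjusted p = 0.58, 0.58 and 0.086). Also outside the rule, Cyyr1, Ecscr and Cd34 came nearest the threshold without passing (limma, adjusted p = 0.051, 0.053 and 0.063). They were at 0.44 ± 0.09, 1.36 ± 0.29 and 0.78 ± 0.18, with groups apart (SE, n = 3 per group).

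**Figure D3:**
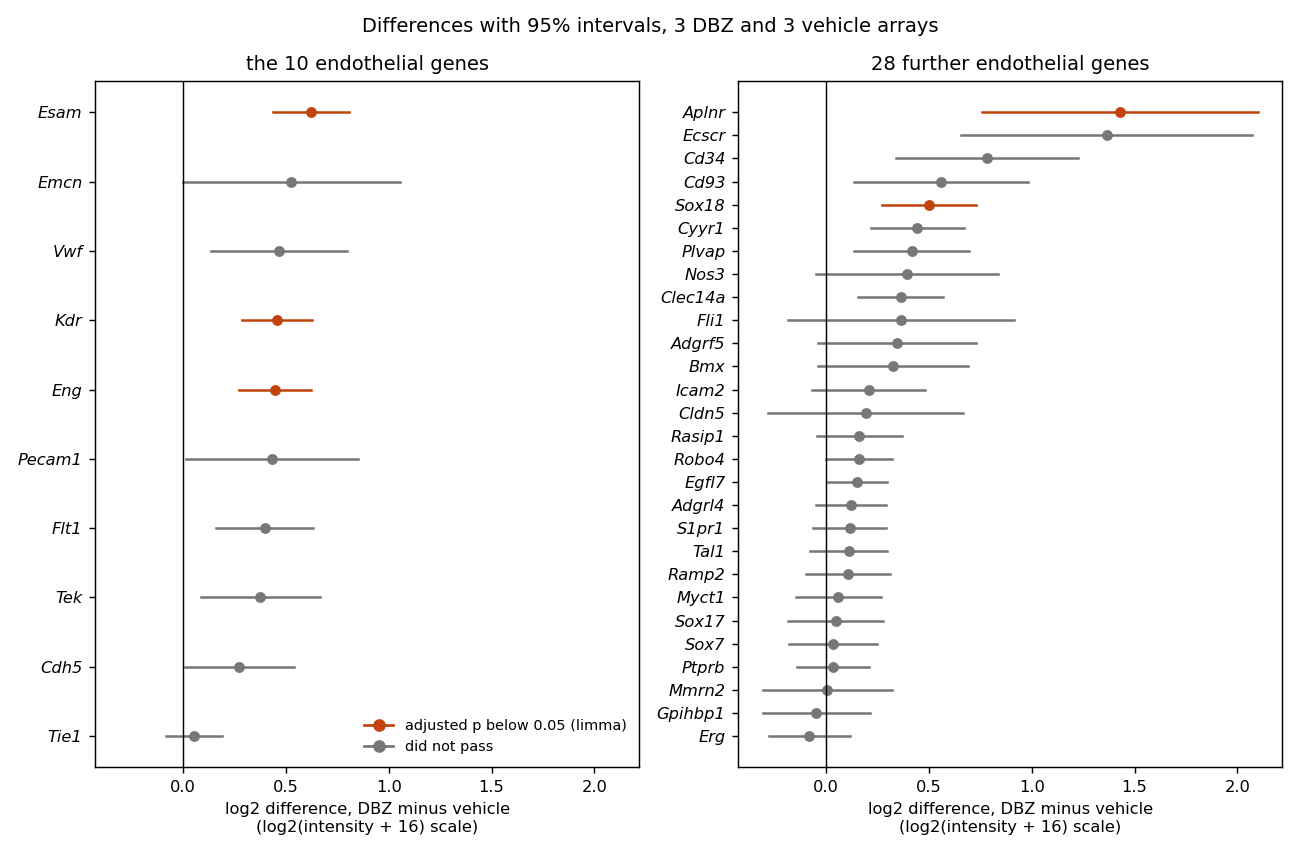
Log2 differences, DBZ minus vehicle, with 95% intervals (bars) for the 10 endothelial genes on the left and 28 further endothelial genes on the right, in order of size. Coloured genes passed limma's adjusted p of 0.05: 3 of 10 on the left and 2 of 28 on the right, all of them higher with DBZ.

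Ligands, receptors and co-receptors of the VEGF, angiopoietin and BMP families were read next, and which receptor each ligand acts on here was not tested. Of 12 listed genes 2 rose and 0 fell, beside 3.82% and 1.52% of all genes, with a median difference of 0.19. Vegfd, a ligand of the VEGF receptor family that stromal cells also make, had 117, 87.1 and 137 units in DBZ arrays, against 48.3, 44.2 and 41.5 in vehicle arrays (log2 difference 1.08 ± 0.15, SE, n = 3 per group; limma, adjusted p = 0.027). Nrp1, a co-receptor of Kdr that other cells express too, had 701, 606 and 697 units in DBZ arrays, against 479.7, 401 and 499.7 in vehicle arrays (0.53 ± 0.11; limma, adjusted p = 0.048). The call of Nrp1 was lost with a pseudocount of 64 and after quantile normalization (limma, adjusted p = 0.064 and 0.068). It was also lost as the mean of its probe sets, at 0.41 (limma, adjusted p = 0.059). Vegfa, the principal ligand of Kdr, was at 306, 292 and 285 units in DBZ arrays and 285, 252 and 289 in vehicle arrays. Its groups overlapped, and the difference of 0.09 ± 0.07 did not pass (limma, adjusted p = 0.47). Vegfa was named outside the rule.

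Notch and tip cell genes known from endothelium did not share a direction. Of 12 listed, 1 rose and 2 fell, beside 3.82% and 1.52% of all genes, with a median of -0.12. Dll4, the Notch ligand of tip cells and also of secretory precursors in the crypt, rose by 1.13 ± 0.12 on the log2 scale (SE, n = 3 per group; limma, adjusted p = 0.019), with 218 to 286 units in DBZ arrays and 92.6 to 116 in vehicle arrays. Nrarp, a Notch target, fell by 1.89 on that scale, with 129.7 ± 37.4 units in DBZ arrays, against 514 ± 40.1 in vehicle arrays (SD, n = 3; limma, adjusted p = 0.016), and the receptor Notch1 fell by 0.63 (limma, adjusted p = 0.0495). The call of Notch1 was lost with a pseudocount of 64 and with arrays centred on medians (limma, adjusted p = 0.070 and 0.055). It was also lost without probe sets that can match related transcripts, named _x_at and _s_at (limma, adjusted p = 0.051). Epithelial cells express Dll4, Nrarp and Notch1, so the arrays do not place them in endothelium. Notch4, a receptor largely of endothelium and named outside the rule, had 103, 147 and 144 units in DBZ arrays and 61.0, 88.9 and 80.9 in vehicle arrays. Its groups were apart, and its difference of 0.66 ± 0.17 did not pass (limma, adjusted p = 0.072).

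Markers of other cell types moved in the same arrays. The calls given below stand beside 3.82% of all genes called higher and 1.52% called lower (limma). Of 13 fibroblast and smooth muscle genes 8 rose and 0 fell, with a median difference of 0.97, and their summed intensity was 47918 to 55661 units in DBZ arrays and 21937 to 32373 in vehicle arrays. Lum, a proteoglycan of fibroblast matrix, Col1a2, Des and Acta2 rose by 1.84 ± 0.21, 1.24 ± 0.14, 1.20 ± 0.17 and 0.66 ± 0.10 on the log2 scale (SE, n = 3 per group; limma, adjusted p = 0.020, 0.021, 0.027 and 0.031). The count of 8 became 4 with the mean of probe sets and 4 with a pseudocount of 64. Des was at 0.59 as the mean of its probe sets, and Acta2 lost its call under all 3 other choices of probe set (limma, adjusted p = 0.059 to 0.078). The ratio of mean sums was 1.88 for that list, beside 1.44 for the 10 endothelial genes. Of 7 genes of pericytes, the cells that wrap capillaries, 1 rose, Abcc9 by 1.04 ± 0.17 (limma, adjusted p = 0.033). The sums were 5889.7 to 6779 units in DBZ arrays and 3737 to 5369 in vehicle arrays. Most of that was Rgs5, with means of 4852 and 3702 units, which did not pass (limma, adjusted p = 0.22). In this list 5 differences were positive and 2 negative, Pdgfrb at -0.22 and Higd1b at -0.18 (limma, adjusted p = 0.30 for both). Kcnj8 was at 0.90 and Cspg4 at 0.22, and neither passed (limma, adjusted p = 0.067 and 0.11). The groups were apart upward for 4 of the 7, Rgs5 among them, and downward for 0, beside 17.3% and 15.8% of all genes. Rgs5, Pdgfrb, Higd1b, Kcnj8 and Cspg4 were named outside the rule. Abcc9 was read from a probe set that can match related transcripts (_s_at), and without such probe sets it was at 0.70 and did not pass (limma, adjusted p = 0.11), nor did it as the mean of probe sets or with a pseudocount of 64 (0.059 and 0.0501). Adipocyte genes rose in 2 of 5 cases, Retn and Adipoq, by 2.32 and 2.72 (limma, adjusted p = 0.038 and 0.047), with sums of 5095 to 12125 units in DBZ arrays and 1424 to 3091 in vehicle arrays. With a pseudocount of 64 both calls were lost (limma, adjusted p = 0.061 and 0.071). That of Adipoq was also lost with arrays centred on medians and with the mean of probe sets (limma, adjusted p = 0.051 and 0.052). No listed gene of 5 mesothelial ones passed (limma, with 5 at an unadjusted p below 0.05), and Upk3b and Gpm6a were at 2.16 and 1.57 (limma, adjusted p = 0.075 and 0.080), with sums of 139.5 to 611 units in DBZ arrays and 86.0 to 90.5 in vehicle arrays. Epithelial genes had 0 of 8 past the test (limma, with 2 at an unadjusted p below 0.05), with Krt18 at 0.65 and Krt19 at -0.29 (limma, adjusted p = 0.17 and 0.18) and sums of 90267 to 96615 units in DBZ arrays and 88201 to 98439 in vehicle arrays. Among 7 platelet and erythroid genes 1 rose, the platelet chemokine Pf4 by 1.19 ± 0.24 (limma, adjusted p = 0.048). The list had a median of -0.08 and sums of 1114 to 1412 units in DBZ arrays and 1304 to 1603 in vehicle arrays. The call of Pf4 was lost with a pseudocount of 64, both normalizations and the mean of probe sets (limma, adjusted p = 0.051 to 0.077). Outside the naming rule, the platelet genes Gp1bb, Gp9 and Itga2b were at -0.75, -0.18 and -0.12 and Ppbp at 0.21. None of these passed (limma, adjusted p = 0.13 to 0.47), and Gp1bb was lower in every DBZ array than in every vehicle array. Among 11 leukocyte genes 2 rose, S100a8 and S100a9 of neutrophils by 4.97 ± 0.74 and 4.82 ± 0.78 (limma, adjusted p = 0.029 and 0.033), with a list median of -0.16 and sums of 2751 to 8736 units in DBZ arrays and 2570.2 to 4078 in vehicle arrays. Detection calls were not used here, so a true signal of the dimmest markers cannot be told from background. The part of other cell types in the endothelial differences was not tested. Each array measured all sorted cells together, so more endothelial cells in the sort, more RNA of these genes per endothelial cell and expression in the stem cells themselves cannot be told apart.

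**Figure D4:**
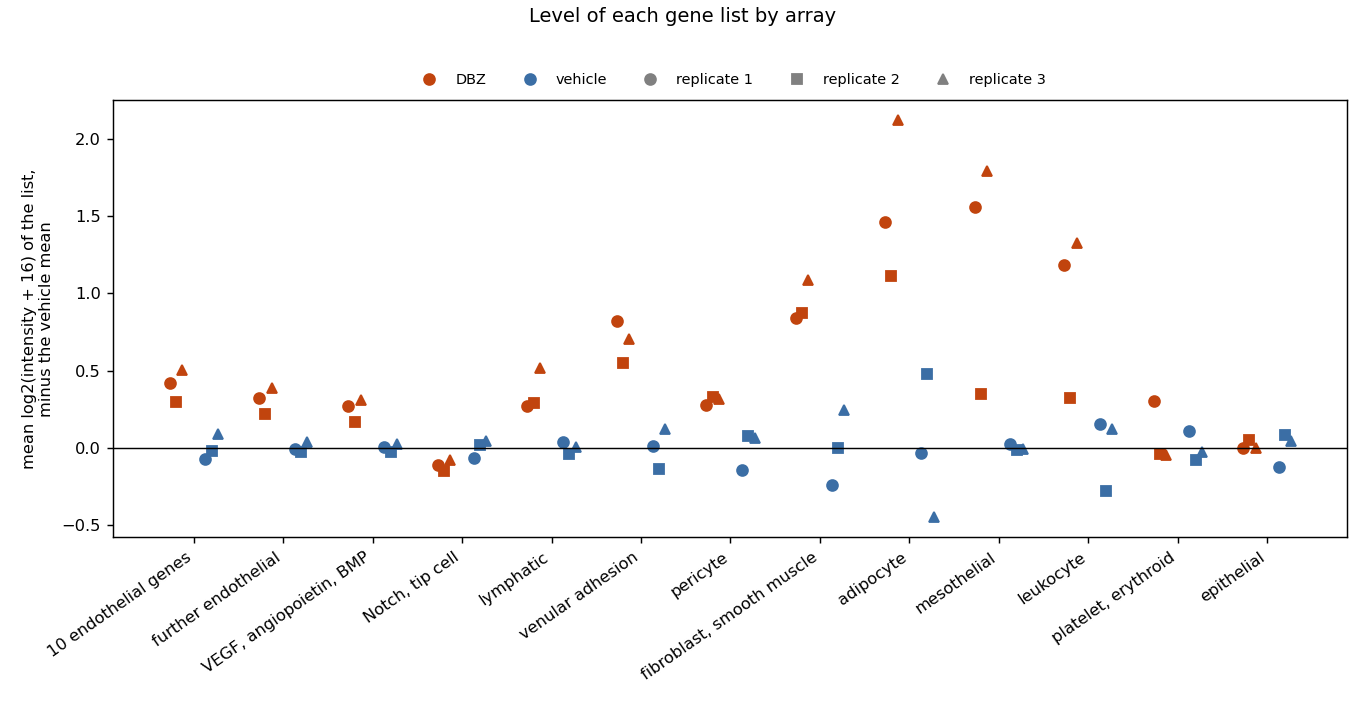
Mean log2(intensity + 16) of each gene list in each array, minus the mean of the vehicle arrays for that list. DBZ points lie above all vehicle points for 10 of the 13 lists, the leukocyte, adipocyte and mesothelial lists among them, below them for Notch and tip cell genes, and overlap them for the platelet and erythroid and the epithelial lists. A list mean can follow few genes. The leukocyte list holds S100a8 and S100a9 at 4.97 and 4.82, while 6 of its 11 differences were negative, the median was -0.16 and its sums overlapped. The lymphatic list holds Pdpn at 1.52, beside a median of 0.10.

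The profile of the 10 genes was shared by many others. Their mean log2(intensity + 16) value was 7.03, 6.91 and 7.11 in DBZ replicates 1, 2 and 3, against 6.54, 6.59 and 6.70 in vehicle replicates 1, 2 and 3. Among 8945 genes brighter than the median gene, 801 or 8.95% followed that profile at a Pearson correlation above 0.9 over the 6 arrays, which share the group difference. The closest were Pla2g6, a phospholipase, Npnt, a matrix protein, Col5a2, a fibrillar collagen, Klhl11, Vcam1, an adhesion molecule, and Sparc, a matrix-binding protein, at 0.995 to 0.999. Of these 6, Pla2g6, Npnt, Col5a2, Vcam1 and Sparc passed the test, with log2 differences of 0.37, 0.71, 0.89, 0.88 and 1.23 (limma, adjusted p = 0.049, 0.034, 0.036, 0.031 and 0.027), and Klhl11, at 0.19, did not (limma, adjusted p = 0.11).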

How the data were processed

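Per the labels' protocols, a 3' IVT kit amplified the RNA of each sorted sample and labelled it with biotin. What the authors deposited is a linear intensity for each probe set, at a common level between arrays. How they summarised, background-corrected and normalized it is not given in the sources used here. Depth does not apply, and the number of arrays limits precision. Whether mice shared a litter or day is not stated.

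Probe sets with several symbols (932) or none (9160), and 64 array controls, were left out, which left 34945 probe sets of 18193 genes. Each gene was read from its probe set of highest mean log2(intensity + 16). A pseudocount of 16 understates changes of dim genes. Groups came from the sample titles, 3 arrays each. limma 3.58.1 in R 4.3.3 (lmFit, eBayes, two-sided) was fitted over all genes with Benjamini-Hochberg adjustment and a threshold of 0.05. It was tested on simulated data. An exact permutation test of 3 against 3 cannot go below p = 0.1 and was not used.

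The members and the 12 other lists (further endothelial, VEGF, angiopoietin and BMP, Notch and tip cell, lymphatic, venular adhesion, pericyte, fibroblast and smooth muscle, leukocyte, platelet and erythroid, adipocyte, mesothelial, epithelial) were chosen with earlier results of these data known. Promoter words were chosen with the sequences in view. Besides the members, up to 4 genes past the threshold were named per list by smallest p, or 2 where none passed, and the 6 genes closest in profile. Alternatives were other pseudocounts, normalization, a filter, probe set choice, variance models, array weights, the replicate block and leaving out each array. Genes named outside this rule are marked as such.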

Additional observations from a re-analysis of the deposited data

How the results depend on the processing

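The 10 endothelial genes kept a positive difference under every alternative run in which they had a value. Those that could move it were pseudocounts of 1 and 64, both normalizations, probe set choices, array weights and every array left out. For the 9 members whose groups lay apart, pseudocounts, array weights and an array left out could not turn the sign. The variance models, the replicate block and the filter on dim genes leave a difference as it is, so they could not turn its sign. Among dimmer probe sets, which no choice read alone, 1 of Cdh5 and 1 of Flt1 were at -0.11 and -0.09. The other dimmer ones were positive. The count of members called, 3, became 1 after quantile normalization and ranged from 0 to 3 with an array left out. For the 28 further endothelial genes, the count of 2 became 5 with a pseudocount of 1, 0 with a pseudocount of 64 and 0 after quantile normalization (limma, with 10 and 8 at an unadjusted p below 0.05), 5 with trend and robust variance and 6 with array weights, and ranged from 0 to 3 with an array left out. Genes called over the whole array, 972, became 440 with a pseudocount of 64 and 2690 with array weights, and ranged from 19 to 2032 with an array left out. The filter on dim genes kept 4 of the 10 members and 12 of the 28, so it gives no value for the others. The cause of these moves was not tested. Of the 23 named genes past the test 12 kept the call with a pseudocount of 64, 17 after quantile normalization, 20 with arrays centred on medians, 17 with the mean of probe sets, 19 of 22 without _x_at and _s_at probe sets, 21 with the probe set of highest variance and 18 with the replicate block. All 21 with a value kept it under the filter on dim genes, and all 23 kept it with a pseudocount of 1, with trend and robust variance and with array weights. The labels do not say that a replicate number marks a shared litter or day. Deviations from the group means of same-numbered arrays correlated at -0.01, 0.25 and 0.20 across genes for replicates 1, 2 and 3, where replicates 2 and 3 correlated best with their own number and replicate 1 did not, so the numbers were not taken as pairs. With the replicate block 889 genes, 2 members and 2 further endothelial genes passed, and Eng was the member lost.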

Other observations

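The venular adhesion and lymphatic lists gave these values, where limma called 3.82% of all genes higher and 1.52% lower. Of 6 venular adhesion genes 2 rose with DBZ, Icam1 by 1.42 ± 0.24 and Vcam1 by 0.88 ± 0.14 on the log2 scale (SE, n = 3 per group; limma, Benjamini-Hochberg adjusted p = 0.034 and 0.031). Both guide leukocytes across the vessel wall and are made by other cells too. Icam1 had 259.9, 193 and 372 units in DBZ arrays, against 80.4, 79.1 and 110.5 in vehicle arrays. The list had a median of 0.68 and summed to 688 to 921 units in DBZ arrays and 354 to 455 in vehicle arrays. Outside the naming rule and picked after values were seen, Selp, the P-selectin of platelets and venules, had 204, 87.9 and 52.8 units in DBZ arrays, against 40.1, 31.2 and 38.4 in vehicle arrays, and its difference of 1.15 ± 0.40 did not pass (SE, n = 3 per group; limma, adjusted p = 0.14).

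Of 6 measured lymphatic genes 1 rose, Pdpn by 1.52 ± 0.19 (SE, n = 3 per group; limma, adjusted p = 0.024), with 685, 510.3 and 770.0 units in DBZ arrays and 266, 179 and 206 in vehicle arrays. Pdpn encodes podoplanin, which fibroblasts also make. The lymphatic list had a median of 0.10, and Lyve1, a hyaluronan receptor of lymphatic endothelium named outside the rule, was at 0.09 ± 0.19 (limma, adjusted p = 0.81).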
